A study of Mus musculus with 3 samples.

Results

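Timp1-high Acta2-low fibroblasts were defined here as stromal cells of the mouse skull with many transcripts of Timp1, a secreted inhibitor of matrix metalloproteinases, and few of Acta2, the smooth muscle actin of contractile cells. Single-cell counts were scaled to 10000 unique molecular identifiers (UMIs, each marking 1 captured mRNA molecule) per cell, written CP10K. A member had at least 500 detected genes, at most 10% mitochondrial UMIs, no UMI of the leukocyte gene Ptprc, under 5 CP10K of the keratins Krt8 and Krt18 together and at least 10 CP10K of the collagens Col1a2 and Col3a1 together. It also had under 20 CP10K of the osteocalcin genes Bglap and Bglap2, under 20 CP10K of Acta2 and at least 20 CP10K of Timp1. The rule found 252 cells among 23831 kept barcodes, of which 4 came from the control library, 194 from the scratch-negative library and 54 from the scratch-positive library. The cells were thus chosen by their measured levels of these 9 genes, whose values are given only as a description.

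The study sampled calvaria, the flat bones of the skull roof, from C57BL/6 mice labelled as 8 weeks old, with 1 library per group. Control mice carried no tumour, and the other mice had received HNM007 cells, a mouse head and neck squamous carcinoma line, on the calvaria 1 week earlier. In the scratch-negative group, labelled as a pre-invasive stage, the bone surface was left intact; in the scratch-positive group, labelled as an invasive stage, a needle had scratched it before implantation, which takes away the periosteum. The tumour was excised, and live CD45+ and CD45- cells from the remaining tissue were mixed 1:1 for each library, so shares of all cells are set by that mix and only shares within a gate are given. Whether cells of several mice were pooled in a library is not stated in the labels. With 1 library per group, no difference between groups could be tested, and a library and its group cannot be told apart.

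Fibroblasts of the periosteum and of the soft tissue over bone make collagen, cross-link it and control its breakdown, and they release growth factors and chemokines. When oxygen is short, the transcription factor HIF-1 raises glycolytic enzymes, the glucose transporter Slc2a1 and the angiogenic factor Vegfa; cytokines acting through NF-kB raise acute-phase proteins such as Saa3 and chemokines that attract neutrophils. Fibroblasts beside tumours are often described as a contractile kind, rich in Acta2, and an inflammatory kind, rich in cytokines and acute-phase genes.

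Among cells with collagen but no Ptprc, keratin or osteocalcin signal, the stromal gate, members were 4 of 107 cells in control (3.74%, exact Clopper-Pearson 95% interval 1.03 to 9.30%), 194 of 534 in scratch-negative (36.3%, 32.2 to 40.6%) and 54 of 443 in scratch-positive (12.2%, 9.29 to 15.6%). The other cells of the gate served as references from the same library. Timp1-low Acta2-low cells, hereafter Timp1-low cells, numbered 103, 274 and 127 in the same order, and Acta2-high cells numbered 0, 66 and 262. Acta2-high cells therefore made up 12.4% of the gate in scratch-negative and 59.1% in scratch-positive; 0 of 107 in control allows a share of up to 2.80% by a floor of 3 cells (exact upper limit 3.39%). All intervals here and below cover counting error only, not differences between mice or libraries.

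**Figure D1:**
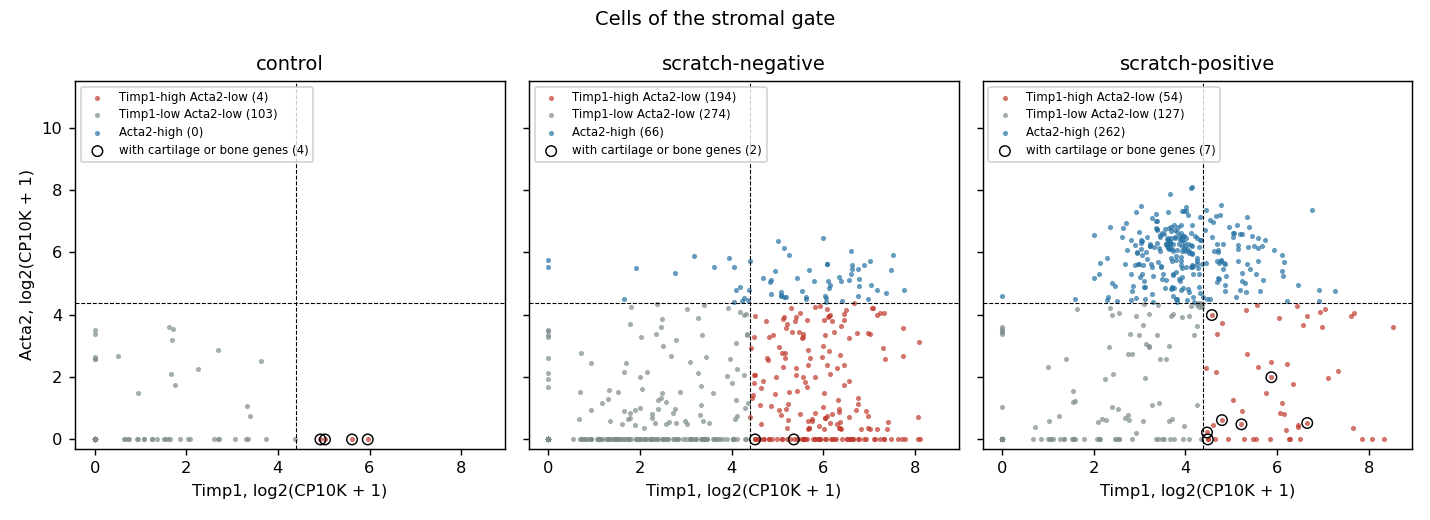
Timp1 against Acta2 in every cell of the stromal gate, each as log2(CP10K + 1), with 1 panel per library; dashed lines mark the limits of 20 CP10K and circled cells carry cartilage or bone transcripts. Members lie to the high-Timp1, low-Acta2 side, and the control panel holds 4 of them, all circled.

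Members were deeply sampled in both tumour libraries. A scratch-negative member had a median of 33876 UMIs from 4864.5 genes, and a scratch-positive member 24642 UMIs from 4563.5 genes, against 11010 and 12042 UMIs in the Timp1-low cells and 40146.5 and 32099.5 UMIs in the Acta2-high cells. Pooled, they gave 6461987 UMIs in scratch-negative and 1410779 in scratch-positive. The 4 control cells had a median of 999 UMIs and 13136 in total, too few for a comparison, so only their levels are given. The libraries held 7490, 8517 and 9504 barcodes before filtering, and pairs of libraries shared 16 to 30 barcodes.

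The fibroblast label was set beside 15 identity genes that the rule did not use, among them Pdgfra, Dcn, Lum, Thy1 and Col1a1. Col1a1 is a collagen like Col1a2 and Col3a1 of the rule, so the sums were in part set by the rule. All 15 had UMIs in both tumour libraries, and together they made up 53829 UMIs per 1000000 UMIs of the pool (CPM) in the scratch-negative members and 51578 CPM in the scratch-positive members. The same genes summed to 3919 and 8192 CPM in the Ptprc-positive cells and to 12189 and 12120 CPM in the keratin-positive cells of those libraries. The median gene of the 15 stood at 268 and 228 CPM in the members, 21.7 and 11.6 CPM in the Ptprc-positive cells and 32.6 and 28.5 CPM in the keratin-positive cells. In the 4 control cells 11 of the 15 had a UMI, and Pdgfra, Thy1, Twist2 and Pdpn were at 0. Their sum there was 39053 CPM and the median gene 457 CPM, so neither value sets fibroblasts apart from cells with cartilage or bone transcripts. Cartilage markers summed to 17433 CPM in the control cells, 29.9 CPM in scratch-negative and 1588 CPM in scratch-positive. Cells with at least 5 CP10K of Acan, Col2a1, Comp and Ibsp together, genes of cartilage and mineralising bone, were 4 of 4 in control, 2 of 194 in scratch-negative and 7 of 54 in scratch-positive. The data thus go against the fibroblast label for the control cells, which are called control cells under the rule below, and values with such cells left out of every pool are given for gene levels, ratios and lists that moved with them. Thinned shares, correlations over cells and levels by Timp1 bin were not recomputed without them.

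Markers of other cells were low but not absent. Of 13 neutrophil genes, 13 had UMIs in the scratch-negative members and 12 in the scratch-positive members (Mmp8 at 0), with sums of 4934 and 1149 CPM against 359500 and 105485 CPM in the Ptprc-positive cells and 8107 and 7422 CPM in the Timp1-low cells. Monocyte and macrophage genes summed to 233 and 147 CPM, with 14 and 12 of 15 detected and Adgre1, a macrophage surface receptor, at 0 in both. Endothelial genes summed to 17.5 and 19.1 CPM, with 9 and 6 of 12 detected and Kdr, Emcn and Vwf at 0 in both. Pericyte and smooth muscle genes summed to 96.7 and 80.1 CPM (9 and 7 of 10 detected), and lymphoid genes to 9.90 and 0.709 CPM (7 and 1 of 10). Meningeal genes, of which 10 and 6 of 10 were detected, summed to 386 and 2871 CPM, and Mgp, a gene of that list that many fibroblasts share, made up 197 and 2809 CPM of them. Epithelial genes other than Krt8 and Krt18 summed to 99.4 and 63.1 CPM, with 11 and 15 of 20 detected, against 1447 and 1685 CPM in the keratin-positive cells. Krt5, Cdh1, Dsg2 and Esrp1 were at 0 in both. Krt5, Dsg2 and Esrp1 were also at 0 in the scratch-negative keratin-positive cells, and Esrp1 in the scratch-positive ones, so these 0s say little about tumour RNA. Krt8 and Krt18, which the rule limits, went the other way from the sums. In scratch-negative 181 of 194 members had no UMI of either, against 22 of 54 in scratch-positive. Xist, transcribed from the inactive X chromosome, stood at 210 and 167 CPM in the members, and 4 Y-linked genes (Ddx3y, Eif2s3y, Kdm5d and Uty) were at 0 in both. The part of free RNA or mixed droplets in any level below was not tested. The Ptprc limit removed 95 of 289 scratch-negative cells that met every other condition (32.9%, with a median of 2 Ptprc UMIs), against 4 of 58 in scratch-positive (6.90%).

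Timp1, the gene that chose the cells, stood at 4644 CPM in the 4 control cells, 7602 CPM in the scratch-negative members and 8600 CPM in the scratch-positive members. By cell it ran from 20.2 to 273 CP10K in scratch-negative with a median of 59.7, from 21.0 to 369 with a median of 65.6 in scratch-positive and from 29.4 to 61.3 in the 4 control cells. Cells just below the limit, at 15 to under 20 CP10K, were 21 in scratch-negative and 13 in scratch-positive, and cells just above it, at 20 to under 25 CP10K, were 19 and 9. In scratch-negative, cells below and above the limit had 280 and 266 CPM of Saa3, 456 and 454 CPM of Vegfa and 1350 and 1481 CPM of Lox. In scratch-positive both groups had 0 UMIs of Saa3, with 94.8 and 24.0 CPM of Vegfa and 230 and 355 CPM of Lox. At the Acta2 limit, 14 scratch-negative cells at 15 to under 20 CP10K had 1079 CPM of Saa3 and 227 CPM of Vegfa, and 13 cells at 20 to under 25 had 177 and 184 CPM. In scratch-negative the values just inside and just outside the Timp1 limit were thus close.

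The other 3 genes given as markers, which the rule did not use, were each higher in the members than in the Timp1-low cells of both tumour libraries. Saa3, an acute-phase apolipoprotein made by inflamed stroma, stood at 1265 CPM (exact Poisson 95% interval 1238 to 1293) in the scratch-negative members and 973 CPM (922 to 1025) in the scratch-positive members, against 70.6 and 44.5 CPM in the Timp1-low cells and 176 and 25.6 CPM in the Acta2-high cells. The ratio to the Timp1-low cells was 17.9 (15.8 to 20.4) and 21.9 (17.4 to 27.7). Saa3 had no UMI in the control cells under the rule or in the control Timp1-low cells (up to 3.52 CPM by a floor of 3 UMIs in the pool, which is used for every level of 0 below). Members were uneven in Saa3: 88 of 194 scratch-negative cells and 34 of 54 scratch-positive cells had none, and the highest cell reached 256 CP10K. After thinning each cell to 5000 UMIs, 45.7% and 39.2% of members carried a Saa3 UMI (54.6% and 37.0% unthinned), against 2.80% and 1.94% of Timp1-low cells, 2.18% and 3.24% of Ptprc-positive cells and 1.72% and 0.532% of keratin-positive cells.

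Vegfa, the main growth factor for blood vessels, stood at 534 CPM (517 to 552) in the scratch-negative members and 174 CPM (153 to 197) in the scratch-positive members. The Timp1-low cells had 224 and 46.7 CPM, giving ratios of 2.38 (2.20 to 2.57) and 3.72 (2.89 to 4.82), and the Acta2-high cells had 172 and 60.8 CPM. Lox, the enzyme that starts cross-links between collagen and elastin fibres, stood at 2004 CPM in the scratch-negative members and 1367 CPM in the scratch-positive members. The Timp1-low cells had 709 and 290 CPM of Lox and the Acta2-high cells 1044 and 357 CPM. Vegfa and Lox had no UMI in 19 and 3 of 194 scratch-negative members and in 15 and 4 of 54 scratch-positive members. After thinning, 26.3% of scratch-negative members had no Vegfa UMI and 54.3% no Saa3 UMI, while in scratch-positive the shares were close, at 56.9% and 60.8%. In control, the Timp1-low cells had 134 CPM of Vegfa and 216 CPM of Lox, and the 4 cells under the rule had 1 UMI of each.

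**Figure D2:**
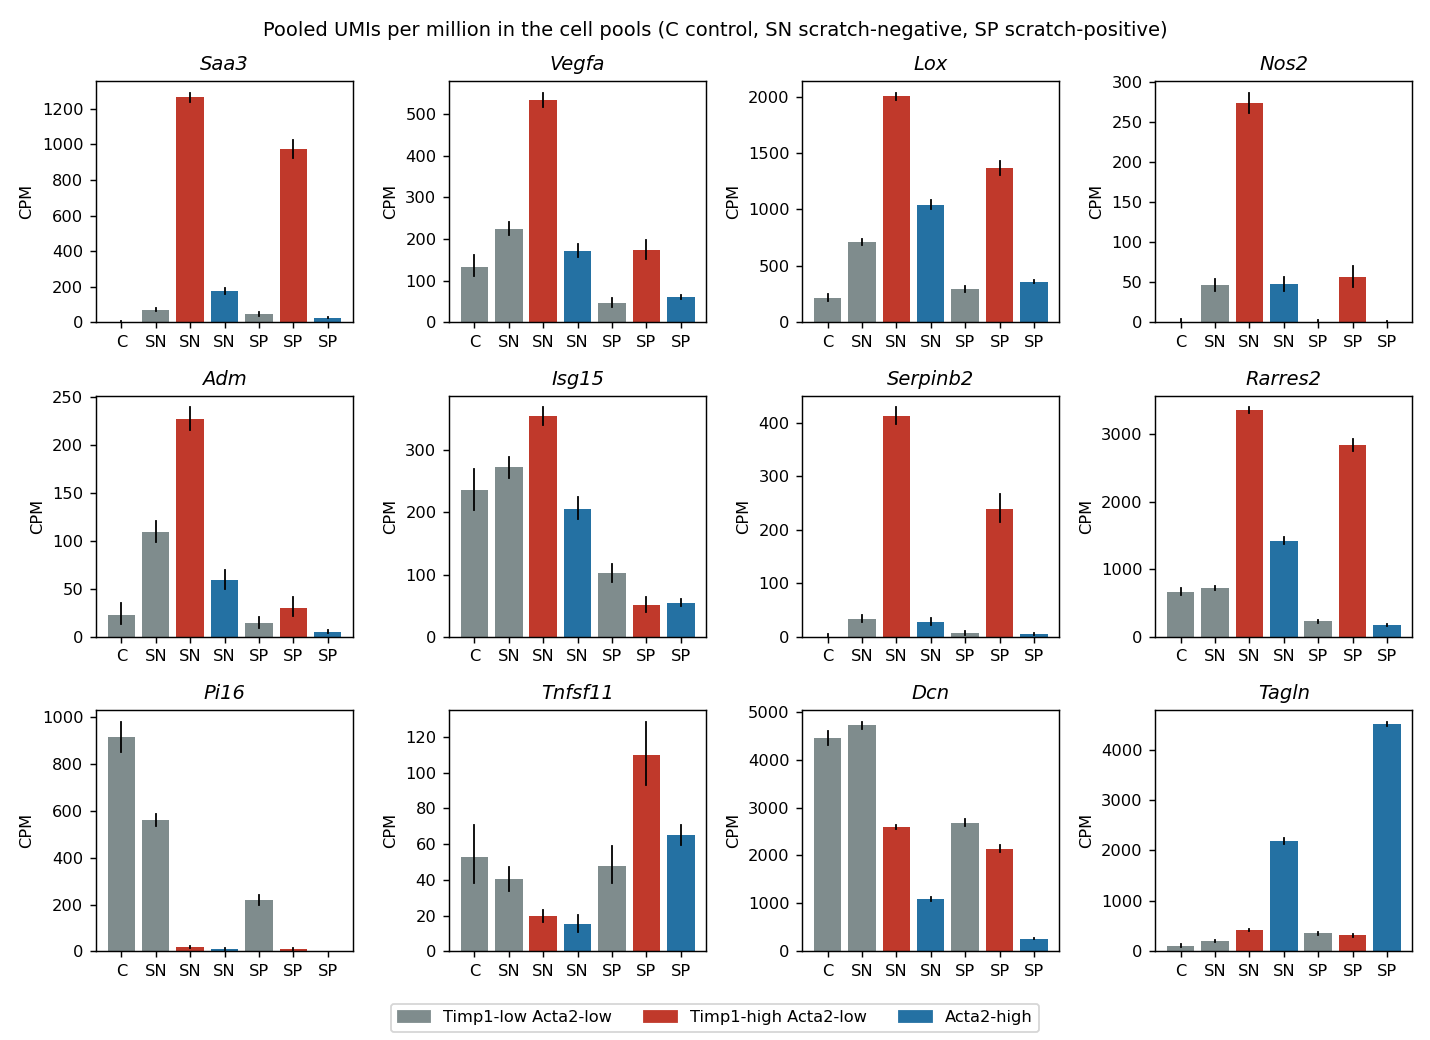
Pooled level in CPM of 12 genes in the Timp1-low cells (grey), members (red) and Acta2-high cells (blue) of the control (C), scratch-negative (SN) and scratch-positive (SP) libraries; bars start at 0 and lines are exact Poisson 95% intervals. Saa3 is tallest in the members of both tumour libraries, Pi16 in the Timp1-low cells and Tagln in the Acta2-high cells.

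In the comparisons below, a gene was compared where the mean of both pools was at least 10 CPM, and was called higher or lower at a 2-fold difference of pooled CPM. Between scratch-positive and scratch-negative members, 7228 genes were compared, of which 4.19% were at least 2-fold higher in scratch-positive and 4.11% lower, with a median log2 ratio of 0.10. Against the Timp1-low cells of the same library, 3.12% of genes were higher in members and 12.6% lower in scratch-negative (7823 genes, median -0.29), and 3.12% higher and 6.35% lower in scratch-positive (7652 genes, median -0.15). Against the Acta2-high cells the shares were 4.03% higher and 1.73% lower in scratch-negative (7227 genes, median -0.16), and 6.59% higher and 5.05% lower in scratch-positive (7304 genes, median -0.13). The Timp1 and Acta2 limits themselves made the contrasts with the Timp1-low and Acta2-high cells, and members were deeper than Timp1-low cells, so those counts describe the separation and nothing is read from them. Scaling by the median of gene ratios in place of the pool totals sets these medians to about 0 and moved the split of calls. It gave 399 genes higher and 627 lower in place of 244 and 985 against the scratch-negative Timp1-low cells, and 305 and 348 in place of 239 and 486 in scratch-positive. Against the Acta2-high cells it gave 397 and 76 in place of 291 and 125 in scratch-negative, and 579 and 256 in place of 481 and 369 in scratch-positive. Between scratch-positive and scratch-negative members the split was 249 higher and 356 lower in place of 303 and 297.

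Hypoxia and glycolysis genes were higher in the members than in both other pools of each tumour library, and lower in scratch-positive than in scratch-negative members. Of the 31 compared with the scratch-negative Timp1-low cells, 26 were at least 2-fold higher and 0 lower (median log2 ratio 1.51), and in scratch-positive 17 of 30 were higher and 0 lower (median 1.12). Against the Acta2-high cells, 11 of 31 were higher in scratch-negative (median 0.79) and 13 of 31 in scratch-positive (median 0.73), with 0 lower in either. Between the tumour libraries, 20 of 32 were lower in the scratch-positive members and 1 higher (median -1.32). Without the cells that carried cartilage or bone transcripts, 19 of 31 were lower and 0 higher (median -1.28).

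Bnip3, a mitochondrial protein that drives removal of mitochondria under low oxygen, stood at 427 CPM (411 to 443) in scratch-negative members and 114 CPM (97.2 to 133) in scratch-positive members. In the Timp1-low cells Bnip3 was at 98.2 and 28.4 CPM, and in control at 22.3 CPM, so the scratch-negative members had the highest level of the pools and the scratch-positive members lay near the scratch-negative Timp1-low cells. Car9, a carbonic anhydrase of the cell surface that is a textbook HIF-1 target, stood at 81.9 and 19.8 CPM in the members and at 14.3 CPM and 0 UMIs in the Timp1-low cells; 0 UMIs allows up to 1.67 CPM. Adm, which encodes the vessel-dilating peptide adrenomedullin, stood at 228 and 30.5 CPM, a 7.47-fold lower level in scratch-positive (interval 5.52 to 10.4). The glucose transporter Slc2a1 stood at 145 and 58.8 CPM, and Egln3, an oxygen-sensing prolyl hydroxylase that marks HIF for destruction, at 99.8 and 23.4 CPM. Among glycolytic enzymes, Ldha stood at 1201 and 739 CPM, Pgk1 at 998 and 660 CPM and Eno1 at 1020 and 420 CPM. Pgk1 was 4.07-fold and 3.94-fold higher than in the Timp1-low cells, so the scratch-positive members kept the contrast within their own library at a lower level. Car12, another carbonic anhydrase, was the 1 hypoxia gene called higher in scratch-positive (log2 ratio 1.85), at 19.8 CPM; without the cartilage and bone cells it fell to 13.1 CPM, its log2 ratio was 1.25 and its mean level was too low for a call.

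The promoter of Timp1 is shown as that of the gene that chose the cells. Bnip3 and Car9 were picked from hypoxia list genes whose promoter held ACGTG on either strand, by their ratio to the scratch-negative Timp1-low cells. A match in Bnip3 and Car9 was thus fixed in advance. Each run covers 250 bases before and 50 after the RefSeq gene start in build GRCm38.p6, 5′ to 3′ on the gene's strand. Matches to ACGTG (or CACGT on the other strand) are in capitals, and in Car9 also a match to the AP-1 letters TGANTCA. The ACGTG letters are the core of the hypoxia response element. Timp1 lies at chrX:20869916-20870215 (+), Bnip3 at chr7:138909457-138909756 (-) and Car9 at chr4:43506776-43507075 (+).
Timp1: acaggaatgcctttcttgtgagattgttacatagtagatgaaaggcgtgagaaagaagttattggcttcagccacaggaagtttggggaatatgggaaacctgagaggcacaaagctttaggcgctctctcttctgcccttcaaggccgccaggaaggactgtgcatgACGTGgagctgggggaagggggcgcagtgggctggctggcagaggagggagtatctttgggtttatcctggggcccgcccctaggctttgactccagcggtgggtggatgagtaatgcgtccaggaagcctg
Bnip3: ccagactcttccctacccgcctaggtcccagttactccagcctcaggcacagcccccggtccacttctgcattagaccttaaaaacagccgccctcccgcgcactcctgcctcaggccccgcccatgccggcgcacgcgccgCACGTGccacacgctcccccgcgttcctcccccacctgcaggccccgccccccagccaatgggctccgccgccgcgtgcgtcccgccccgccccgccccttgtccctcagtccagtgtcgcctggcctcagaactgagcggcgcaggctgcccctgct
Car9: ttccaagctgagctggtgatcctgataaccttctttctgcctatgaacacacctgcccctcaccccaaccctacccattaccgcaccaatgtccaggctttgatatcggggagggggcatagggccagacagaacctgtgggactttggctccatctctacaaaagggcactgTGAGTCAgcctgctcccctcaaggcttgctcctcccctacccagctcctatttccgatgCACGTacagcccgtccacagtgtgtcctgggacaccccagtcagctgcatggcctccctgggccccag
Timp1 and Car9 each held 1 match, and Bnip3 held both strands' letters in the overlapping palindrome CACGTG. Over the hypoxia and glycolysis list, 25 of 44 promoters of the 31 genes found in the table (of 34) held ACGTG on either strand, 56.8%, against 5 of 37 promoters of the inflammatory list (13.5%) and 6447 of 32851 promoters of all genes (19.6%). A match describes letters in the window and is not evidence that a factor bound there.

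Angiogenic factors followed Vegfa only in part. Against the Timp1-low cells, 5 of 16 were higher and 4 lower in scratch-negative (median 0.25), and 4 of 15 higher and 0 lower in scratch-positive (median 0.56). Between the libraries, 5 of 15 were lower in scratch-positive members and 0 higher (median -0.37), or 5 and 1 without the cartilage and bone cells. Pgf, placental growth factor of the VEGF family, stood at 404 CPM (389 to 420) in scratch-negative and 110 CPM (93.3 to 129) in scratch-positive members, 2.63-fold and 4.59-fold above the Timp1-low cells; 40.6% of the scratch-positive Pgf UMIs came from 1 cell. Angptl4, a secreted inhibitor of lipoprotein lipase that HIF-1 and PPARs induce, stood at 585 and 187 CPM. Apln, the ligand of the vascular receptor Aplnr and not a member of the list, stood at 113 and 15.6 CPM, 7.25-fold lower in scratch-positive (4.75 to 11.6).

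Genes of inflammatory stroma were higher in the members than in both reference pools, and most differed less between the tumour libraries than the hypoxia genes did. Against the Timp1-low cells, 11 of 41 were higher and 4 lower in scratch-negative (median 0.67), and 17 of 39 higher and 5 lower in scratch-positive (median 0.70). Against the Acta2-high cells, 21 of 41 were higher and 0 lower in scratch-negative (median 1.02), and 22 of 39 higher and 1 lower in scratch-positive (median 1.20). Between the libraries 3 of 41 were higher and 8 lower in scratch-positive members (median -0.38); without the cartilage and bone cells the counts were 4 and 6 (median -0.23). Without those cells 1 in place of 4 genes was lower against the scratch-negative Timp1-low cells, and 3 in place of 5 in scratch-positive.

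The chemokines that attract neutrophils through CXCR2 were close to each other in the 2 tumour libraries. Cxcl1 stood at 2321 CPM in scratch-negative and 2363 CPM in scratch-positive members, a ratio of 1.02 (0.981 to 1.06), against 1265 and 923 CPM in the Timp1-low cells. Cxcl2 stood at 836 and 965 CPM and Cxcl5 at 936 and 705 CPM; Cxcl5 was 5.32-fold (4.90 to 5.78) and 8.40-fold (7.07 to 10.0) above the Timp1-low cells. Ptgs2, the inducible cyclooxygenase of prostaglandin synthesis, stood at 1108 and 672 CPM, 2.44-fold and 3.30-fold above the Timp1-low cells. Tnfaip6, a hyaluronan-binding protein induced by TNF and IL-1, stood at 1374 and 642 CPM. Cxcl14, a chemokine of epithelium and stroma, went the other way, with 892 CPM in scratch-negative and 1671 CPM in scratch-positive members, and was 16.0-fold (14.8 to 17.3) above the scratch-positive Acta2-high cells. Il6, a cytokine of the acute-phase response, had log2 ratios of -0.13 and -0.18 to the Timp1-low cells; it stood at 195 and 133 CPM, against 48.6 and 37.9 CPM in the Acta2-high cells.

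Nos2, the inducible nitric oxide synthase, was among the 10 genes furthest higher against the Timp1-low cells of both libraries. Without the cartilage and bone cells it was among them in scratch-positive alone. It stood at 274 CPM (261 to 287) in scratch-negative members, in 121 of 194 cells, and at 56.0 CPM (44.3 to 69.8) in scratch-positive members, in 8 of 54 cells with 36.7% of the UMIs from 1 cell. Nos2 stood in the Timp1-low cells at 45.8 CPM in scratch-negative and 0 UMIs in scratch-positive, which makes the members at least 33.6-fold higher there by the floor of 3 UMIs; the exact interval of the ratio starts at 26.7. The Acta2-high cells had 47.5 and 0.467 CPM, and the control pools had 0 UMIs. After thinning to 5000 UMIs, 41.4% of scratch-negative and 5.88% of scratch-positive members carried Nos2 (62.4% and 14.8% unthinned), against 2.06% and 0.960% of Ptprc-positive cells and 10.3% and 0.106% of keratin-positive cells. The enzymes that recycle or compete for its substrate arginine were high as well: Arg1 stood at 57.7 and 36.9 CPM against 7.45 and 4.45 CPM in the Timp1-low cells, and Ass1 at 111 and 102 CPM against 20.1 and 22.3 CPM. Of the arginine and nitric oxide list, 4 of 10 were higher and 0 lower against the Timp1-low cells in scratch-negative, and 5 of 9 and 0 in scratch-positive.

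For the inflammatory list, the promoters of Cxcl2 and of Il4ra, the receptor chain for interleukin-4, are shown with the NF-kB letters GGG, any 2 bases and TTTCC, on either strand, in capitals, in the same windows and build (chr5:90903649-90903948, +, and chr7:125552021-125552320, +).
Cxcl2: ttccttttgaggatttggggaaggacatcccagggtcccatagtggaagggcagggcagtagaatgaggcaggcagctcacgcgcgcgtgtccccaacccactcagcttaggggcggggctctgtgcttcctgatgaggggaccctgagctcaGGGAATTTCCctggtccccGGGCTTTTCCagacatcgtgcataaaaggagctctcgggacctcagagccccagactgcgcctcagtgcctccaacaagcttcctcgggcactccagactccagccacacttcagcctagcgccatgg
Il4ra: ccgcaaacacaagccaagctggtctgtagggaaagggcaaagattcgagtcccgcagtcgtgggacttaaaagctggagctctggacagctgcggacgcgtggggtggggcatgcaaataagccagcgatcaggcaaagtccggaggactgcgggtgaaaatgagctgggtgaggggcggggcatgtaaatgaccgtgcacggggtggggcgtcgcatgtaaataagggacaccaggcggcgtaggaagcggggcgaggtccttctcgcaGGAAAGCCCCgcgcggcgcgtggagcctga
Cxcl2 held 2 matches and Il4ra 1. Both genes were picked from list genes whose promoter held the letters, by their ratio to the scratch-negative Timp1-low cells. At least 1 match in each was thus fixed in advance. The letters stood in 9 of 37 promoters of the inflammatory list (24.3%), in 0 of 44 of the hypoxia list and in 1.63% of all promoters; TGANTCA stood in 16.2%, 9.09% and 7.81%.

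In the pooled counts, interferon response genes were lower in scratch-positive than in scratch-negative members. Of them, 15 of 27 were at least 2-fold lower and 0 higher (median -1.19), and 15 of 28 lower without the cartilage and bone cells (median -1.10). By cell, the typical member differed little. After thinning, the list gave a median of 7 UMIs per cell (0 to 349) in scratch-negative and 6 (1 to 87) in scratch-positive. The lower quartile was 3 UMIs in both, and the upper quartiles were 16.75 and 10.5. The list counts thus differed mainly among the members with the most interferon UMIs. Isg15, a ubiquitin-like protein induced by type I interferon, stood at 355 CPM (340 to 370) in scratch-negative and 51.0 CPM (39.9 to 64.3) in scratch-positive members. Ifit3, an antiviral protein of the same response, stood at 57.6 and 3.54 CPM, 16.2-fold lower in scratch-positive (6.90 to 50.3), and Irf7, which amplifies interferon production, at 53.5 and 18.4 CPM. The Timp1-low cells of the same libraries differed in the same direction, with 272 and 102 CPM of Isg15. Within a library, 2 of 30 interferon genes were higher and 0 lower against the Timp1-low cells in scratch-negative (median -0.36), and 0 of 23 higher and 3 lower in scratch-positive (median -0.42), or 6 lower there without the cartilage and bone cells. After thinning, 38.7% and 13.7% of members carried Isg15 (70.1% and 35.2% unthinned), against 25.1% and 18.7% of Ptprc-positive cells and 44.8% and 6.49% of keratin-positive cells. Ccl11, the eosinophil attractant eotaxin, belongs to the inflammatory list and not to the interferon list. It stood at 218 and 32.6 CPM and was 6.67-fold lower in scratch-positive (4.98 to 9.16).

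**Figure D3:**
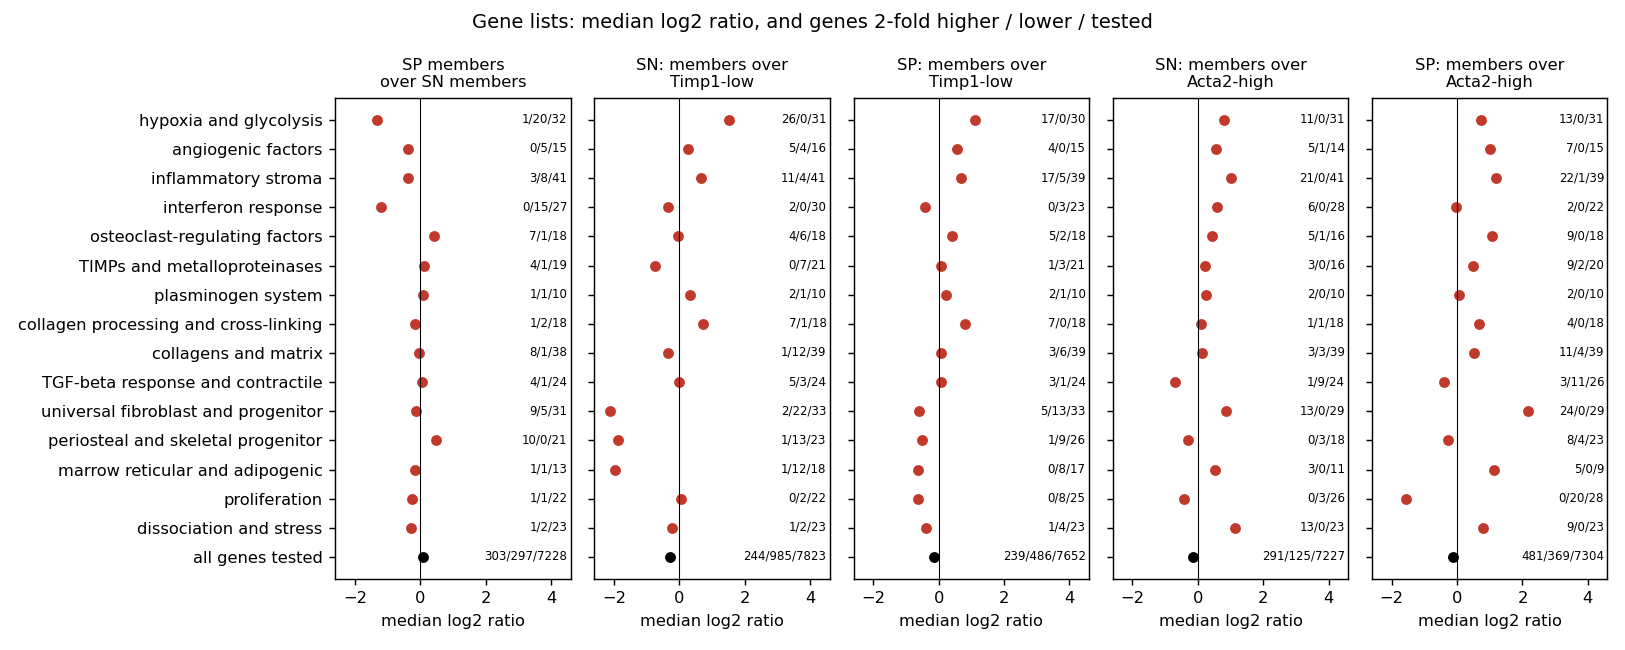
Median log2 ratio of each gene list in the 5 comparisons (1 panel each), with the numbers of list genes at least 2-fold higher, lower and compared printed at the right. The hypoxia and glycolysis list lies to the right of 0 in the 4 comparisons within a library and at -1.32 between scratch-positive and scratch-negative members.

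Collagen processing and cross-linking enzymes were higher in members than in Timp1-low cells: 7 of 18 were higher and 1 lower in scratch-negative (median 0.73), and 7 of 18 higher and 0 lower in scratch-positive (median 0.81). The called genes included further lysyl oxidases and the hydroxylases that prepare collagen for folding and cross-linking. Loxl2 stood at 355 CPM in scratch-negative and 189 CPM in scratch-positive members, 2.59-fold and 1.95-fold above the Timp1-low cells, and Loxl3 at 137 and 126 CPM, 2.35-fold and 2.58-fold above. The prolyl hydroxylase subunit P4ha2 stood at 688 and 240 CPM, 3.42-fold and 3.79-fold above, and the lysyl hydroxylase Plod1 at 192 and 130 CPM, 2.91-fold and 2.59-fold above. Against the Acta2-high cells the list was near even in scratch-negative, with 1 of 18 higher and 1 lower (median 0.10), and 4 of 18 were higher in scratch-positive (median 0.67). P4ha1, P4ha2 and Plod2 stand in both this list and the hypoxia list.

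Structural matrix genes showed little of this. Of collagens and matrix proteins, 1 of 39 was higher and 12 lower against the scratch-negative Timp1-low cells (median -0.36), and 3 of 39 higher and 6 lower in scratch-positive (median 0.06), where the counts were 5 and 5 without the cartilage and bone cells (median -0.09). Col1a1, the main fibrillar collagen of bone and skin, stood at 25735 and 24301 CPM in the members and at 16965 and 15956 CPM in the Timp1-low cells. Dcn, the proteoglycan decorin that binds collagen fibrils, stood at 2593 and 2144 CPM, below the Timp1-low cells (4719.7 and 2683 CPM) and above the Acta2-high cells (1097 and 265 CPM). Postn, the matricellular protein periostin of the periosteum, stood at 969.7 and 763 CPM, against 711 and 675 CPM in the Timp1-low cells and 1149 and 920.3 CPM in the Acta2-high cells.

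Of the other inhibitors of metalloproteinases, Timp2 was lower and Timp3 higher in the members than in the Timp1-low cells of both libraries, and past 2-fold for Timp2 in scratch-negative alone. Timp2 stood at 303 CPM (290 to 317) in scratch-negative and 646 CPM (605 to 690) in scratch-positive members, below the 953 and 867 CPM of the Timp1-low cells, and 2.13-fold higher in scratch-positive than in scratch-negative members (1.97 to 2.31). Timp3 stood at 460 and 333 CPM, against 304 and 191 CPM in the Timp1-low cells. The gelatinase Mmp2 stood at 482 and 523 CPM and the membrane-bound collagenase Mmp14 at 255 and 354 CPM, neither 2-fold apart from the Timp1-low cells. The stromelysin Mmp3 stood at 72.1 and 12.1 CPM, 2.77-fold and 3.92-fold lower than in the Timp1-low cells. The collagenase Mmp13 stood at 59.3 CPM in 3.09% of scratch-negative members and at 442 CPM in 24.1% of scratch-positive members. Over the whole list of TIMPs and metalloproteinases without Timp1, 0 of 21 were higher and 7 lower in scratch-negative against the Timp1-low cells (median -0.75), and 1 of 21 higher and 3 lower in scratch-positive (median 0.06).

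Of the plasminogen system, Serpinb2 was called higher against the Timp1-low cells in both libraries, and Serpine2 lower. Serpinb2, an inhibitor of urokinase, stood at 413 CPM in 78 of 194 cells and at 240 CPM in 7 of 54 cells, with 37.9% of the latter from 1 cell. The Timp1-low cells had 33.9 and 6.12 CPM of Serpinb2 and the Acta2-high cells 27.4 and 4.43 CPM. Serpine2, a thrombin inhibitor, was 6.92-fold and 2.42-fold lower in the members than in the Timp1-low cells; without the cartilage and bone cells the first ratio was 10.2, at 30.9 in place of 63.4 CPM in the members.

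Genes of resting, universal fibroblasts were lower in the members than in the Timp1-low cells and higher than in the Acta2-high cells. Against the Timp1-low cells, 2 of 33 were higher and 22 lower in scratch-negative (median -2.11), and 5 of 33 higher and 13 lower in scratch-positive (median -0.60). Against the Acta2-high cells, 13 of 29 were higher and 0 lower in scratch-negative (median 0.87), and 24 of 29 higher and 0 lower in scratch-positive (median 2.17). Pi16, a marker of adventitial fibroblasts, stood at 19.5 CPM in scratch-negative and 8.51 CPM in scratch-positive members against 560 and 219 CPM in the Timp1-low cells, 28.7-fold (24.0 to 34.7) and 25.7-fold (14.5 to 50.2) lower. Clec3b, tetranectin, stood at 7.27 CPM and 0 UMIs against 373 and 120 CPM, at least 56.5-fold lower in scratch-positive by the floor of 3 UMIs, with an exact interval that starts at 45.6. Gsn, the actin-severing protein gelsolin, stood at 129 and 249 CPM against 2691 and 1719 CPM. Rarres2, which encodes the chemoattractant chemerin, went against its list: it stood at 3351 and 2829 CPM, 4.67-fold (4.49 to 4.87) and 12.6-fold (11.3 to 13.9) above the Timp1-low cells and 16.3-fold above the scratch-positive Acta2-high cells. Complement and acute-phase genes such as C3, Serping1 and C4b were above the Acta2-high cells: C3 by 12.0-fold and 47.1-fold, Serping1 by 4.99-fold and 14.3-fold and C4b by 26.9-fold (10.4 to 99.3) and 128-fold (33.2 to 1088). The Acta2-high cells had only 1.54 and 0.233 CPM of C4b.

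Of marrow reticular and adipogenic genes, 1 of 18 was higher and 12 lower against the Timp1-low cells in scratch-negative (median -1.96), and 0 of 17 higher and 8 lower in scratch-positive (median -0.64). These medians depended on the cells kept: without the cartilage and bone cells 7 and 6 of 16 were lower (medians -0.66 and -0.44), and with at least 50 CP10K of collagens 5 of 14 and 5 of 15 were lower (medians -0.23 and 0.02). Adipoq, adiponectin, stood at 1.70 CPM in 1.03% of scratch-negative members and at 0 UMIs in scratch-positive members, against 152 and 32.3 CPM in the Timp1-low cells, where 8.76% and 3.94% of cells carried it. Without the cartilage and bone cells the Timp1-low cells had 27.1 and 20.4 CPM of Adipoq and the scratch-negative members 1 UMI. Leaving Timp1-low cells with at least 20 CP10K of Cxcl12 out turned the log2 ratio of Adipoq from -6.40 to 2.14 in scratch-negative.

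Contractile genes other than Acta2 separated the members from the Acta2-high cells, which the Acta2 limit had set apart. Tagln, an actin-binding protein of smooth muscle, stood at 423 and 318 CPM in the members and 2191 and 4508 CPM in the Acta2-high cells. Myl9, the regulatory myosin light chain, was 7.20-fold lower in scratch-negative and 12.7-fold lower in scratch-positive, and Cnn1, calponin, 8.15-fold and 47.1-fold lower. Of the TGF-beta response and contractile list, 1 of 24 was higher and 9 lower in scratch-negative (median -0.69), and 3 of 26 higher and 11 lower in scratch-positive (median -0.42). Against the Timp1-low cells the medians of the TGF-beta response and contractile list were -0.01 and 0.08, and median-of-ratios scaling turned the first to 0.28. Granzyme genes marked the scratch-positive Acta2-high cells: Gzmd stood at 1094 CPM there and 5.67 CPM in the members, and Gzme at 1311 and 36.9 CPM. Proliferation genes were lower than in the scratch-positive Acta2-high cells, with 0 of 28 higher and 20 lower (median -1.58), and Mki67, a marker of dividing cells, stood at 35.3 and 19.8 CPM in the members against 50.9 and 62.0 CPM.

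Of factors that regulate osteoclasts, the cells that resorb bone, 7 of 18 were higher and 1 lower in scratch-positive than in scratch-negative members (median 0.42), and the counts were the same without the cartilage and bone cells (median 0.41). Tnfsf11, which encodes RANKL, the ligand that osteoclast precursors need to mature, stood at 19.7 CPM (16.4 to 23.4) in scratch-negative and 110 CPM (93.3 to 129) in scratch-positive members, a ratio of 5.59 (4.39 to 7.13). The Timp1-low cells had 40.3 and 47.8 CPM and the Acta2-high cells 15.1 and 64.9 CPM, so the members lay below the Timp1-low cells in scratch-negative and above them in scratch-positive. Without the cartilage and bone cells the scratch-negative Timp1-low cells had 27.4 CPM of Tnfsf11, which ended the 2-fold call there (log2 ratio -0.47), and the scratch-positive log2 ratio stayed at 1.19. After thinning, 11.8% and 35.3% of members carried Tnfsf11 (29.4% and 51.9% unthinned), against 10.3% and 15.5% of Timp1-low cells, 6.56% and 22.1% of Acta2-high cells and 0.363% and 0.120% of Ptprc-positive cells. Its decoy receptor Tnfrsf11b, osteoprotegerin, stood at 12.2 and 9.21 CPM, a ratio of 0.754 (0.384 to 1.36), which does not set the libraries apart beyond counting error. Il11, an IL-6 family cytokine that promotes osteoclast formation, stood at 21.0 and 84.4 CPM, in 22.2% and 25.9% of members. Csf1, the macrophage colony-stimulating factor, stood at 84.8 and 59.5 CPM.

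Of EGF ligands and other growth factors, 7 of 18 were higher and 2 lower in scratch-positive than in scratch-negative members (median 0.40), and 6 of 19 higher and 1 lower without the cartilage and bone cells (median 0.53). Ereg, the EGF receptor ligand epiregulin, stood at 107 CPM in scratch-negative and 281 CPM (254 to 310) in scratch-positive members. The Timp1-low cells had 14.9 and 2.78 CPM of Ereg, so the members were 7.21-fold (5.46 to 9.70) and 101-fold (43.0 to 313) higher; 24 of 54 scratch-positive members carried it. Inhba, the activin A subunit, stood at 106 and 278 CPM and stood at 102 and 219 CPM in the Acta2-high cells. Wnt2, a ligand of canonical Wnt signalling, stood at 59.3 and 34.7 CPM, 3.47-fold and 31.2-fold (8.19 to 265) above the Timp1-low cells, which had only 1.11 CPM in scratch-positive.

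Metallothioneins, small proteins that bind zinc and copper, were the most abundant of the genes that separated the 2 groups of members. Mt1 stood at 18035 CPM in scratch-negative and 4050 CPM in scratch-positive members, 4.45-fold lower (4.34 to 4.57), and Mt2 at 5854 and 1424 CPM. In the Timp1-low cells Mt1 stood at 5462 and 1393 CPM and in the Acta2-high cells at 4282 and 296 CPM, so every pool was lower in scratch-positive. Genes of tissue dissociation and stress had medians of -0.22 (0.07 with median-of-ratios scaling) and -0.37 against the Timp1-low cells, while 13 of 23 were higher against the Acta2-high cells in scratch-negative (median 1.13) and 9 of 23 in scratch-positive (median 0.80). Their part in the contrasts with the Acta2-high cells was not tested.

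**Figure D4:**
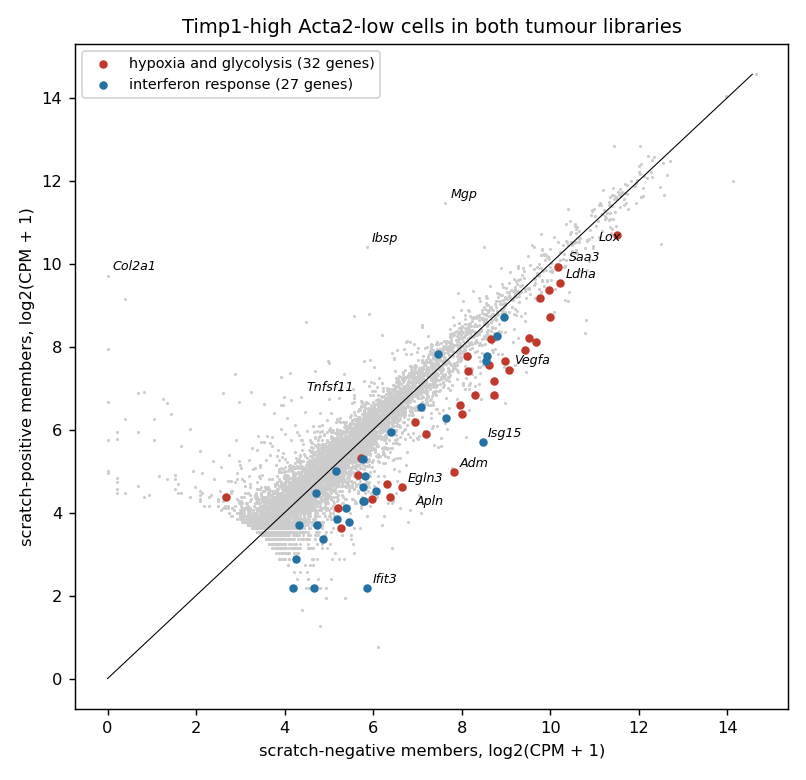
Level of each compared gene in scratch-positive against scratch-negative members, both as log2(CPM + 1). The 32 hypoxia and glycolysis genes are in red and the 27 interferon response genes in blue, and the line marks equal levels. Most coloured points lie below the line, with 20 red and 15 blue genes at least 2-fold lower in scratch-positive.

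The 10 genes furthest lower in scratch-positive members were Ccl5, Ifit3, Barx2, Krt19, Dmkn, AA467197, Adm, Apln, Isg15 and Ccl11. Ccl5 rested on 1 scratch-negative cell, which held 93.4% of its UMIs, whereas the largest single cell held 3.28 to 15.9% of the UMIs of the other 9. The homeobox gene Barx2 stood at 39.9 and 2.84 CPM, the keratin Krt19 at 84.6 and 7.80 CPM and the secreted protein Dmkn at 134 and 14.9 CPM. Krt19 had UMIs in 102 of 194 scratch-negative members. Krt19 stands in the epithelial list and made up most of its sum in scratch-negative, where 9 of the 20 genes, Epcam and Cdh1 among them, were at 0. The keratin-positive cells there had a median gene level of only 4.46 CPM over the list. The 0s therefore cannot tell whether tumour RNA was present, and its part in the Krt19 level was not tested. The 10 genes furthest higher were Col2a1, Comp, Gpha2, Hapln1, Col9a2, Col9a1, Smpd3, Col9a3, Ifitm5 and Ctla2a, of which a single scratch-positive cell held 51.8 to 100% of the UMIs. Without the cartilage and bone cells the list read Gpha2, Ctla2a, Matn4, Wif1, Reg3g, Aqp5, Mgp, Fmod, Eln and Mest. Each of these still drew much of its level from 1 scratch-positive cell. That cell held 100% of the Reg3g UMIs, 83.5% of those of Gpha2 (4 cells) and 51.8% of those of Ctla2a (5 cells). For the others the share ran from 31.0% (Mgp) to 41.7% (Fmod). Of the 10 genes, Mgp, the matrix Gla protein that inhibits calcification, was found in the most cells. It stood at 2721 CPM in 29 of 47 scratch-positive members against 193 CPM in scratch-negative. Osteoblast genes show the same dependence: 8 of 10 were higher in scratch-positive with all members (median 3.55), but 2 of 5 without those cells (median 0.94). Of periosteal and skeletal progenitor genes, 10 of 21 were higher and 0 lower (median 0.49), and 7 of 19 without those cells (median 0.44).

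Beyond the genes named above, the rule for named genes picked Fabp4, Tnfrsf9 and Rbp4 against the scratch-negative Timp1-low cells. Rbp4, the retinol carrier, was spread over 171 of 194 members at 487 CPM, 8.50-fold (7.38 to 9.83) above the Timp1-low cells, and stood at 448 CPM in scratch-positive members, 8.13-fold (6.57 to 10.2) above. Fabp4, a fatty acid-binding protein, stood at 96.4 CPM in 54 of 194 members, and Tnfrsf9, a costimulatory receptor of the TNF receptor family, at 65.2 CPM in 53. In scratch-positive, Prokr2 and A2m were each 27.6-fold above the Timp1-low cells (9.04 to 137), in 20 and 12 of 54 members. Genes furthest lower against the Timp1-low cells in both libraries were Myoc and Rgs5; Myoc, a secreted glycoprotein, had 0.155 and 0.709 CPM in members against 247 and 181 CPM. Thbs4, a thrombospondin of tendon and wounded tissue, stood at 184 CPM in 15 of 54 scratch-positive members and at 0.35 CPM in the Acta2-high cells.

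Members varied among themselves in the hypoxia and the inflammatory lists, which had little rank correlation with each other in scratch-negative. Each cell was thinned to 5000 UMIs, which left 186 scratch-negative and 51 scratch-positive cells and left out 8 and 3. The hypoxia list without Vegfa gave a median of 81.5 UMIs per cell (7 to 151) in scratch-negative and 31 (8 to 164) in scratch-positive, and the inflammatory list without Saa3 gave 75.5 (6 to 229) and 64 (0 to 200). Over cells, Vegfa and the hypoxia list had a Spearman rho of 0.58 in scratch-negative and 0.53 in scratch-positive, and Saa3 and the inflammatory list one of 0.37 and 0.60. Lox and the hypoxia list had a rho of 0.55 and 0.58, with Vegfa left out of the list there too. The hypoxia and inflammatory lists had a rho of -0.07 in scratch-negative and 0.43 in scratch-positive, and Saa3 and Vegfa one of 0.10 in both, which was -0.03 and 0.20 after thinning to 2000 UMIs. Cells of 1 library share their preparation and their tissue, so these values describe the cells and carry no test; the difference between the libraries was not tested.

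**Figure D5:**
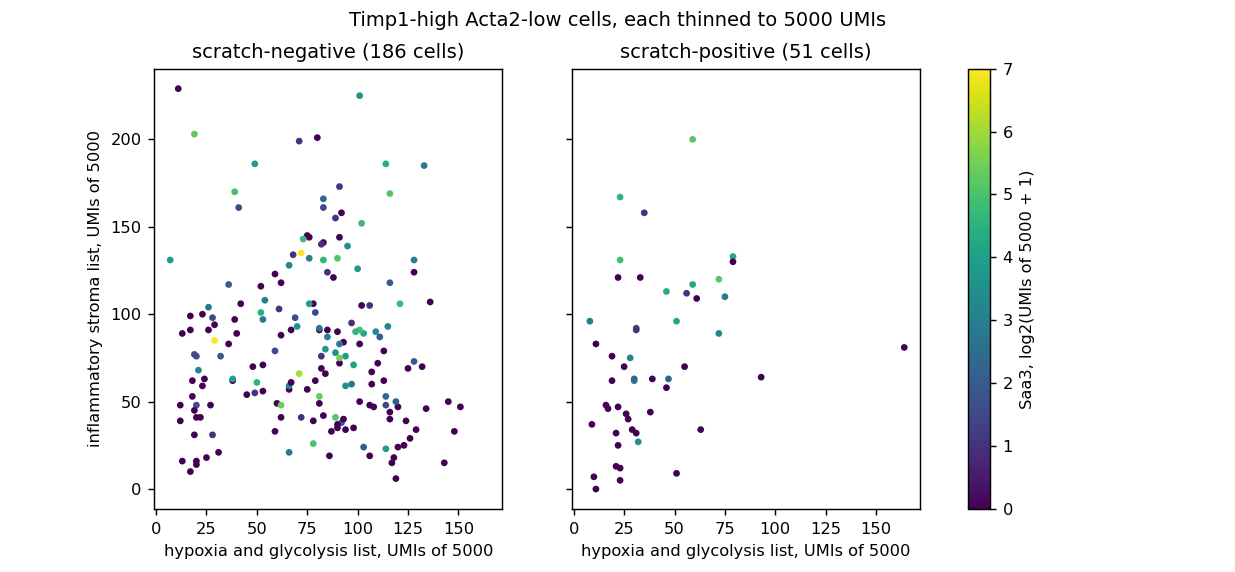
UMIs of the hypoxia list against UMIs of the inflammatory list in each member after thinning to 5000 UMIs, with 186 scratch-negative and 51 scratch-positive cells, coloured by Saa3 UMIs. The scratch-negative cells spread over both axes with no common trend (rho -0.07), and the scratch-positive cells lie at lower hypoxia counts (median 31 against 81.5).

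Along Timp1 itself, taken over all Acta2-low cells of the stromal gate in scratch-negative, the hypoxia list was at 3141 CPM in 191 cells under 5 CP10K, 7603 CPM in 83 cells at 5 to 20, 13659 CPM in 82 cells at 20 to 50, 15164 CPM in 71 cells at 50 to 100 and 16923 CPM in 41 cells above 100. The list of universal fibroblast genes went from 26869 CPM in the lowest bin to 9007 CPM in the middle bin and 11700 CPM in the highest. Saa3 was highest at 50 to 100 CP10K of Timp1, with 1760 CPM, and stood at 24.6 CPM in the lowest bin and 1267 CPM in the highest. Nos2 was at 12.0, 86.9, 198, 246 and 458 CPM over the same bins. Adipoq was at 271 CPM in the lowest bin and at 0 UMIs in both bins above 50 CP10K. Median depth also differed between the bins, from 9483 UMIs in the lowest to 36894 in the highest, and its part in these values was not tested. In scratch-positive, bins of at least 20 cells reached 20 to 50 CP10K, where the hypoxia list was at 5112 CPM in 22 cells, against 3545 CPM in 76 cells under 5 CP10K.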

How the data were processed

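The deposited files were count matrices of UMIs per gene and cell for 3 libraries of 10x 3′ single-cell RNA, with 31053 genes. Per the file headers the matrices came from Cell Ranger 6.1.2, and per the submitters' processing notes reads were counted on mm10; further parameters are not given in the sources used here.

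Barcodes were kept with at least 500 genes and at most 10% mitochondrial UMIs, and no doublets were removed from the main values, since Scrublet marked 0.0152%, 0% and 6.38% of barcodes. The alternative without doublets did not use these calls. It left out the 346, 532 and 663 barcodes with the highest Scrublet scores, an assumed rate of 0.8% per 1000 barcodes. Counts of all cells of a pool were summed and divided by the pool total (CPM), with an offset of 0.5 UMI in log2 ratios. Level intervals are exact Poisson, shares exact Clopper-Pearson and ratios exact conditional binomial, at 95%. Thinned shares of Ptprc-positive and keratin-positive cells came from at most 1000 cells drawn per library. Pools of under 30 cells were not compared. No test was run and no p-value is given, because each group is 1 library; the design set no blocks. Named genes were the 10 furthest higher and lower in each comparison with a mean of at least 20 CPM and a counting interval on one side of 1. Genes of the rule, mitochondrial, ribosomal, haemoglobin and unnamed predicted genes were left out, and so were genes under 10% of their level in Ptprc-positive or keratin-positive cells. Examples from gene lists were also named. The members, the lists and the comparisons were chosen with earlier results of these data known. Tools were scanpy 1.11.5, pandas 2.3.3, scipy 1.17.1, numpy 2.4.6 and Python 3.11.15. Only the comparison of pools was tested on simulated data, which held counting error but no variation between cells. Filters, limits and scaling were varied, and doublets and cycling cells left out, as the closing section gives. The values of 1 listed gene are not reported here.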

Additional observations from a re-analysis of the deposited data

Results flagged for a closer look

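Some genes of the lists were at least 2-fold apart in opposite directions in the 2 tumour libraries; with 1 library per group, none of these differences was tested.

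Between members and Timp1-low cells, Tnfsf11 had a log2 ratio of -1.03 in scratch-negative and 1.19 in scratch-positive. Sfrp4, a secreted Wnt antagonist, had -4.02 (10.7 against 175 CPM) and 2.31 (97.8 against 19.5 CPM). The cartilage gene Acan had -3.93 and 1.30, and the bone sialoprotein gene Ibsp -2.28 (56.8 against 276 CPM) and 1.40 (1355 against 513 CPM). Comp had -9.56, with 0 UMIs in the scratch-negative members, and 2.46. Acan, Comp and Ibsp are 3 of the 4 genes that marked the 7 cartilage and bone cells among the scratch-positive members. With such cells left out of every pool, Tnfsf11 had -0.47 and 1.19, Sfrp4 -4.33 and 0.65 (31.2 against 19.8 CPM in scratch-positive), and Acan turned to -1.32 in scratch-positive. Ibsp was then at 0 UMIs and Comp at 2 UMIs in the scratch-positive members.

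Between members and Acta2-high cells, the mineralisation enzyme gene Alpl had a log2 ratio of -1.02 in scratch-negative and 3.76 in scratch-positive, Col11a1 -1.73 and 1.27, Col15a1 -1.33 and 1.24, and Fmod, a collagen-binding proteoglycan, -2.58 and 3.97. Gzme went the other way, with 2.81 (19.7 against 2.70 CPM) and -5.15 (36.9 against 1311 CPM). Without the cartilage and bone cells, Alpl had 0.64 and 2.63 (52.5 in place of 118 CPM in the scratch-positive members), Col11a1 -0.13 in scratch-positive (145 in place of 386 CPM), and Fmod 3.27 there (88.6 in place of 162 CPM). Col15a1 then had -1.33 and 1.45 and Gzme 2.81 and -4.94.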

How the results depend on the processing

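No paired analysis was possible because each group is 1 library. The log2 ratios of single genes were recomputed under every alternative: 1366 moved little, 228 moved more and 18 changed sign; list medians moved by over 0.25 in 261 cases and by less in 1601, and the 10 correlations over cells moved by less than 0.15, though that of Saa3 and Vegfa turned from 0.10 to -0.03 in scratch-negative. The median of the hypoxia list stayed negative between scratch-positive and scratch-negative members (-1.66 to -0.96) and positive against the Timp1-low cells (1.02 to 1.95 and 0.87 to 1.27). The interferon median between the libraries ran from -1.51 to -0.55. Alternatives added after seeing the data were no limit on Ptprc, leaving out cells with cartilage and bone transcripts, Timp1-low cells under 20 CP10K of Cxcl12 and Acta2-high cells with Timp1 of at least 20 CP10K. Requiring no Krt8 or Krt18 UMI left 22 scratch-positive members, too few for 3 comparisons. Leaving out cartilage and bone cells left no Col2a1 UMI in either scratch-positive Acta2-low pool.

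The share of members in the gate was 30.7% in scratch-negative and 9.03% in scratch-positive at Acta2 under 10 CP10K, 42.7% and 18.1% at Timp1 of at least 10, 26.0% and 8.13% at Timp1 of at least 40, 42.3% in scratch-negative at 50 CP10K of collagens, and 0% in control without cartilage and bone cells.

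Counts of genes are given in the order scratch-positive against scratch-negative, then against Timp1-low cells and against Acta2-high cells in scratch-negative and scratch-positive, as higher and lower. They were 73 and 98, 130 and 225, 97 and 103, 131 and 32, and 176 and 110 at a mean of at least 50 CPM. With no filter they were 1944 and 3402, 1573 and 4804, 1291 and 3238, 2826 and 1544, and 2305 and 3529. After thinning to 5000 UMIs they were 731 and 642, 409 and 1510, 461 and 1103, 638 and 643, and 800 and 860. Between the libraries, 491 were higher at Acta2 under 10, 505 without cycling cells and 526 with the mean over cells in place of sums. Against the Timp1-low cells, the mean over cells gave 1589 lower in scratch-negative and 373 higher and 1029 lower in scratch-positive, Timp1 of at least 40 gave 142 higher in scratch-negative, and median-of-ratios scaling gave 399 higher and 627 lower there. Against the scratch-negative Acta2-high cells, 273 were lower at Acta2 under 10, 189 at Timp1 of at least 40, 294 without cycling cells, 354 with the mean over cells and 76 with median-of-ratios scaling. Against the scratch-positive Acta2-high cells, 221 were lower at Timp1 of at least 10.

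Log2 ratios that changed sign rested on few cells. Without cartilage and bone cells, Col9a2 went to -1.13 and Smpd3 to -1.76 between the libraries, Col9a3 to -0.15 against the Timp1-low cells, and Ibsp and Col2a1 to -2.48 each against the Acta2-high cells of scratch-positive. Without cycling cells, Col9a2 went to -1.15 and Col9a3 to -1.78 between the libraries, Col2a1 and Col9a3 to -1.50 each against the scratch-positive Timp1-low cells, and to -2.26 and -1.18 against the Acta2-high cells. At Timp1 of at least 40, Col2a1 went to -10.74 and Col9a3 to -4.99 against the scratch-positive Timp1-low cells, Col2a1 to -2.45 against the Acta2-high cells, and Ibsp to -3.29 against the scratch-negative Acta2-high cells. Ibsp there went to -2.604 with the barcodes of highest Scrublet score removed. Against the scratch-negative Timp1-low cells, Adipoq went to 2.14 with the Cxcl12 limit and Ccl5 to -0.071 with no limit on Ptprc. The cause of the other changes was not tested.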
